A study of Mus musculus with 2 samples.

Results

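The genes of the mitochondrial respiratory chain were examined in leukocytes of a mouse melanoma, by complex and by the genome that encodes them. Members were all genes whose symbols begin with mt-, Ndufa, Ndufb, Ndufs, Ndufv, Ndufc, Sdh, Uqcr, Cox4i, Cox5, Cox6, Cox7, Cox8 or Atp5, which gave 110 of the 31053 genes listed. Of these, 97 are nuclear and 13 are mitochondrial. The nuclear genes were 36 subunits and 8 assembly factors of complex I, 4 subunits and 4 assembly factors of complex II, 8 subunits of complex III, 19 of complex IV, 17 of complex V, and the supercomplex factor *Cox7a2l*. The mitochondrial genes were 7 subunits of complex I, 1 of complex III, 3 of complex IV and 2 of complex V. The rule used symbols only, so no measured value chose a member.

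Live CD45+ cells were sorted from *Braf*-mutant *Ptgs*-/- melanomas, which lack both cyclooxygenases, on day 4 of growth in C57BL/6 hosts aged 8 weeks. Control hosts were untreated, and NK cell-depleted hosts received 200 µg of anti-NK1.1 and 30 µg of anti-asialo GM1 on days 0 and 2. Tumors of a group were pooled, so each group was 1 library of the 10x Genomics 3′ kit, and parental melanoma cells with intact *Ptgs* were added to both sorts. The comparison asks how the leukocytes of these tumors differ when NK cells are absent. The genotype entry of both samples speaks of wild-type tumor cells while both titles name a knockout, and this disagreement touches both groups alike. A group of 1 library has no replicates, so no test was possible. The intervals below are exact 95% intervals and cover counting error only, so a difference between libraries cannot be told apart from one between the treatments.

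The respiratory chain of the inner mitochondrial membrane passes electrons from NADH through complex I, or from succinate through complex II, to complex III and then to oxygen at complex IV. Complexes I, III and IV pump protons, and complex V, the ATP synthase, uses the gradient to make ATP. Complex II also belongs to the citrate cycle and is made of nuclear gene products alone, whereas the other complexes join subunits from both genomes. Nuclear genes are transcribed singly and translated in the cytosol, while mitochondrial genes are transcribed as long joint transcripts that are cut apart. Macrophages are known to shift between oxidative metabolism and glycolysis with their activation, and neutrophils are known for relying on glycolysis and having few active mitochondria.

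Transcripts were counted as unique molecular identifiers (UMIs), each standing for 1 captured molecule. After filtering to cells with 500 to 15000 UMIs, 200 to 4000 genes and at most 10% of UMIs from mt- genes, 5292 control cells and 4506 depleted cells remained of 11651 called. The median kept cell had 4170 UMIs in the control library and 4893 in the depleted library. Cells were clustered without the members and named from marker genes. Monocyte/macrophage-like cells numbered 3611 in control and 3246 in depleted tumors and held 82.6% of all kept UMIs. NK-like cells numbered 559 and 20, T-like cells 276 and 203, neutrophil-like cells 358 and 457, melanoma-like cells 52 and 70, migratory DC-like cells 59 and 48, and B-like cells 48 and 37. Cluster 9, with 236 and 310 cells, carried markers of both conventional dendritic cell types (*Xcr1*, *Flt3*, *Cd209a*) and was left unnamed. Cluster 14, with 93 and 115 cells, mixed genes of neutrophils and eosinophils and was set aside. Of the members, 106 held UMIs in any kept cell, and the 4 that did not were *Cox7b2*, *Cox8b*, *Cox8c* and the second identifier listed for Atp5o.

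Levels are shares of all UMIs of a class, given in percent or in counts per 1000000 UMIs (CPM). The kit counts transcript ends, so a CPM is a number of molecules and not a level per length, and different genes were not ranked against each other. Some members overlap on the mitochondrial genome, where a read in the shared stretch belongs to both genes. The last 60 bases of 3 such genes are shown because the overlap bears on how far their counts can be read singly (GRCm38, plus strand, capitals mark the bases shared with the second gene).
mt-Atp8, chrM:7910-7969, shared with mt-Atp6: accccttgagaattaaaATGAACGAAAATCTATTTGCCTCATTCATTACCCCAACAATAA
mt-Nd4l, chrM:10114-10173, shared with mt-Nd4: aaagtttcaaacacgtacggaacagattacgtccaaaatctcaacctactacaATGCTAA
mt-Nd5, chrM:13506-13565, shared with mt-Nd6 on the opposite strand: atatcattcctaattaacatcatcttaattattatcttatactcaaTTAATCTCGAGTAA
The overlap spans 43 bases for *mt-Atp8*, 7 for *mt-Nd4l* and 14 for *mt-Nd5*. How reads in these stretches were assigned is not given in the sources used here, so the counts of *mt-Atp8*, *mt-Nd4l* and *mt-Nd6* are uncertain to that extent.

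Across cell classes, the transcripts of the 2 genomes did not vary in proportion (levels by class). In monocyte/macrophage-like cells, nuclear members took 1.67% (1.66 to 1.67) of UMIs in control and 1.44% (1.44 to 1.45) in depleted tumors, and mt- members took 2.92% and 3.67%. B-like cells had the highest mt- share, at 6.74% (6.55 to 6.92) and 8.04% (7.83 to 8.26), with a nuclear share of only 1.03% (0.960 to 1.11) and 0.844% (0.774 to 0.918). T-like cells held 5.29% and 5.94% in mt- members and 1.34% and 1.09% in nuclear members. B-like and T-like cells thus had more mitochondrial and fewer nuclear transcripts of the chain than monocyte/macrophage-like cells in either library. NK-like cells carried a nuclear share of 1.61% and 1.68%, close to that of monocyte/macrophage-like cells, with mt- shares of 4.58% and 5.83%. In cluster 9 the nuclear share was 1.82% and 1.52% and the mt- share was 4.15% and 4.33%. Migratory DC-like cells had 1.428% and 1.2004% in nuclear members and 3.38% and 3.79% in mt- members.

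**Figure D1:**
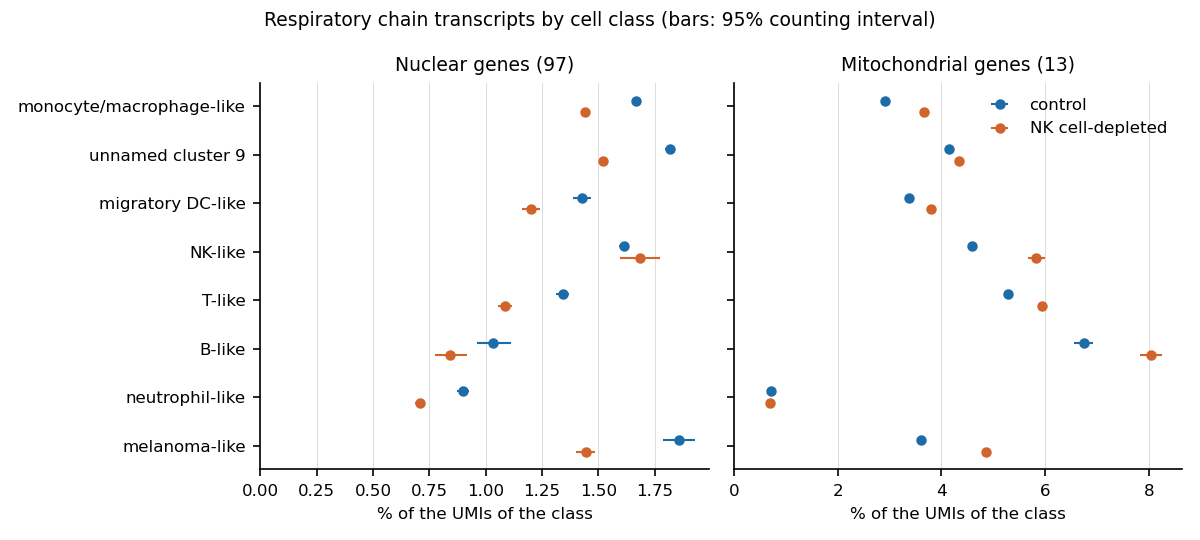
Share of a class's UMIs from nuclear members (left) and mt- members (right), in percent on the horizontal axes, for 8 cell classes in the control (blue) and NK cell-depleted (orange) library, with exact 95% Poisson intervals as bars. Of the classes drawn, neutrophil-like cells are lowest for both genomes, with 0.899% and 0.708% nuclear and 0.713% and 0.690% mt- UMIs, while B-like cells are highest for mt- UMIs.

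Among the named classes, neutrophil-like cells had the fewest transcripts of both genomes. Nuclear members took 0.899% (0.871 to 0.928) of their UMIs in control and 0.708% (0.687 to 0.729) in depleted tumors, and mt- members took 0.713% (0.688 to 0.739) and 0.690% (0.669 to 0.711). Against monocyte/macrophage-like cells of the same library, the log2 difference was -0.89 and -1.03 for nuclear members and -2.03 and -2.41 for mt- members. The mt- transcripts were thus further below the macrophage level than the nuclear ones in both libraries. Neutrophil-like cells were shallow, with medians of 1157.5 and 1298 UMIs against 5152 and 5498.5. With cells thinned to 1500 UMIs, the nuclear difference was -0.53 and -0.93 and the mt- difference -1.96 and -2.24. Thinning left out every cell under 1500 UMIs, so only 48 of the 358 control and 122 of the 457 depleted neutrophil-like cells remained, and the effects of depth and of selecting deep cells cannot be told apart. The filter on mt- UMIs acts on this comparison too, and without it the mt- difference was -1.61 and -1.90. In single cells, the median nuclear share of neutrophil-like cells was 0.806% in control and 0.637% in depleted tumors, against 1.58% and 1.40% for monocyte/macrophage-like cells.

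The number of nuclear UMIs per mt- UMI ordered the classes over a wide range. Because the kit counts molecules of genes of unequal length, this ratio was compared between classes and not read as a balance of proteins. It was highest in neutrophil-like cells, at 1.26 (1.202 to 1.323) in control and 1.03 (0.983 to 1.07) in depleted tumors. Monocyte/macrophage-like cells followed at 0.572 and 0.393, then melanoma-like cells at 0.514 and 0.298, cluster 9 at 0.438 and 0.351, and migratory DC-like cells at 0.423 and 0.317. The lymphocytes came last, with 0.352 and 0.289 in NK-like, 0.254 and 0.183 in T-like, and 0.153 and 0.105 in B-like cells. The order was the same in both libraries except that melanoma-like cells fell below cluster 9 and migratory DC-like cells in the depleted library.

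In the control library, the nuclear subunits of each complex were lower in neutrophil-like than in monocyte/macrophage-like cells. In control monocyte/macrophage-like cells, nuclear subunits of complex I took 0.464% of UMIs, complex III 0.185%, complex IV 0.448% and complex V 0.483%, against 0.252%, 0.088%, 0.269% and 0.248% in control neutrophil-like cells. Complex II held 0.037% and 0.019%. In the control library, the mt- subunits of complex IV held 1.80% of monocyte/macrophage-like UMIs, 0.416% of neutrophil-like UMIs and 4.05% of B-like UMIs. Complex IV therefore supplied most mt- UMIs in all 3 classes.

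Some members stood apart in a class, by the rule of the 3 highest and 3 lowest levels relative to the mean of the other classes. B-like cells, with under 50 cells in either library, did not enter these means, and cluster 14 did. *Sdhaf1*, which helps to insert iron-sulfur clusters into succinate dehydrogenase, reached 123 and 104 CPM in migratory DC-like cells, 8.05 times the mean of 14.3 CPM elsewhere, from 71 UMIs. *Ndufab1*, the mitochondrial acyl carrier protein and also a complex I subunit, reached 284 and 291 CPM in melanoma-like cells, 5.57 times the other classes. Both values were alike in the 2 libraries. *Atp5s* (20.3 and 22.9 CPM, 10 UMIs) and *Cox6a2* (33.8 and 13.1 CPM, 9 UMIs) were also above the other classes in melanoma-like cells, but from few UMIs.

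In NK-like cells, *Uqcrh*, the hinge protein of complex III, stood at 1030 and 744 CPM, 2.09 times the mean of the other classes. It was nearly as high in T-like (963 and 745 CPM), migratory DC-like (904 and 688 CPM) and B-like cells (859 and 657 CPM), so it was not particular to NK-like cells. *Ndufb11*, an accessory subunit of the complex I membrane arm, was at 224 and 201 CPM (1.99 times), and the assembly factor *Ndufaf1* at 11.6 and 23.6 CPM from 18 UMIs. The highest relative levels in T-like cells were those of mitochondrial genes, with *mt-Nd2* at 1848 and 2255 CPM (1.88 times) and *mt-Atp6* at 7858 and 10330 CPM (1.82 times). B-like cells had still more of both, at 2577 and 3162 CPM of *mt-Nd2* and 9040 and 12883 CPM of *mt-Atp6*. *mt-Nd6*, the one mt- member on the other strand, was at 42.9 and 37.2 CPM in T-like cells from 44 UMIs. In neutrophil-like cells, where most members were low, the accessory subunits *Ndufb9* (220 and 138 CPM) and *Ndufa12* (61.4 and 74.2 CPM) lay above the mean of the other classes, at 1.43 and 1.27 times it. The assembly factor *Ndufaf7* was the third, from 14 UMIs.

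In cluster 9 the highest relative levels included *Cox6b2*, the isoform known from testis, at 17.2 and 20.6 CPM (6.86 times the other classes), and *Cox6a2*, the isoform known from striated muscle. Neither was particular to cluster 9 in the depleted library. Migratory DC-like cells held *Cox6b2* at 2.94 and 21.6 CPM, from 7 UMIs, and melanoma-like cells held *Cox6a2* at 33.8 and 13.1 CPM, from 9 UMIs. *Cox6a2* was at 43.4 CPM (32.9 to 56.1) in the control library, from 58 UMIs, and at 2.45 CPM (0.797 to 5.73) in the depleted library, from 5 UMIs. The libraries differed 17.7-fold (7.15 to 56.4) in this gene. The markers of other cell types in cluster 9 differed too, with plasmacytoid dendritic cell markers at 895 and 460 CPM (6 of 6 seen in both), migratory DC markers at 191 and 39.3 CPM (10 and 9 of 10), B cell markers at 653 and 242 CPM (10 and 4 of 10) and neutrophil markers at 404 and 175 CPM (10 of 12 in both), and their part was not tested. The assembly factor *Ndufaf6* had 34 UMIs in cluster 9 (7.48 and 11.8 CPM). At the low end, *Ndufa4l2* had no UMI in any named class other than monocyte/macrophage-like cells, and the same held for *Cox4i2*. *Cox7a1* had none in neutrophil-like and melanoma-like cells, 1 UMI in NK-like cells and 6 in cluster 9.

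Between the groups, monocyte/macrophage-like cells of control tumors had more nuclear and fewer mitochondrial transcripts of the chain than those of NK cell-depleted tumors. Nuclear members summed to 340532 UMIs of 20406130 in control and 278223 of 19288813 in depleted tumors, a ratio of 1.16 (1.15 to 1.16) of control over depleted and a log2 ratio of 0.21. The mt- members summed to 595488 and 708133 UMIs, a ratio of 0.795 (0.792 to 0.798) and a log2 ratio of -0.33. The median log2 ratio was 0.24 over the 93 nuclear members with at least 20 UMIs, of which 72 were above 0, and -0.26 over the 13 mt- members, of which 2 were above 0. The median over all 11934 genes tested was -0.01. In single cells, the median mt- share was 2.79% in control and 3.67% in depleted tumors.

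A gene was counted as higher or lower where it differed by at least 1.2-fold and its counting interval lay wholly on that side of 1. By this rule 43 nuclear members were higher in control and 3 were lower, and of the mt- members 1 was higher and 6 were lower. Over all genes tested, 14.3% were higher and 14.7% were lower. The rule measures counting error alone, so large counts pass it more readily.

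**Figure D2:**
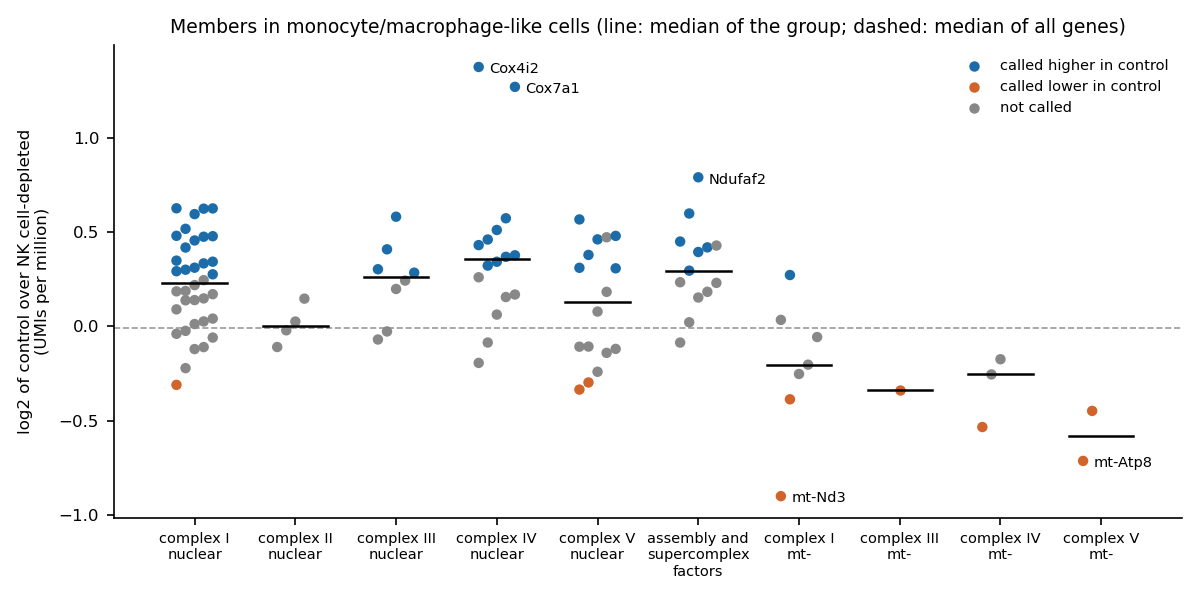
Log2 ratio of control over NK cell-depleted for each member in monocyte/macrophage-like cells (vertical axis) by complex and genome (horizontal axis), with genes called higher in control in blue, called lower in orange and not called in gray, a line at each group's median and a dashed line at the median of all genes. Nuclear members of complexes I, III and IV lie mostly above 0 with medians of 0.23, 0.26 and 0.36, complex II lies around 0, and 11 of the 13 mt- members lie below 0.

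In complex I, the entry point for NADH, most nuclear subunits were more abundant in control. They held 94635 and 74036 UMIs, a ratio of 1.21 (1.197 to 1.220), with 29 of 36 above 0, 17 higher and 1 lower. The highest ratios were those of *Ndufv3*, *Ndufa5* and *Ndufa7*, small accessory subunits of the peripheral arm. *Ndufv3* was at 208 CPM in control and 135 CPM in depleted tumors, a ratio of 1.54 (1.47 to 1.62). *Ndufa5* was at 86.8 and 56.3 CPM, and *Ndufa7* at 212 and 137 CPM, each with a log2 ratio of 0.62. *Ndufb9* of the membrane arm was at 178 and 118 CPM, 1.51-fold (1.43 to 1.59). The assembly factors *Ndufaf2* (15.98 and 9.23 CPM, 1.73-fold, 1.44 to 2.09) and *Ndufaf1* (6.37 and 4.20 CPM, 1.52-fold, 1.14 to 2.03) were higher as well. *Ndufs8*, a core subunit that carries iron-sulfur clusters, was the one lower subunit, at 43.5 and 53.9 CPM with a log2 ratio of -0.31. It turned to 0.08 when every cluster was given equal weight.

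Complex II did not share the difference. Its 4 subunits held 7595 and 7163 UMIs, a ratio of 1.002 (0.970 to 1.04), and none was called. The flavoprotein *Sdha* was at 112 and 121 CPM (log2 ratio -0.11), the iron-sulfur subunit *Sdhb* at 75.3 and 74.0 CPM (0.02), and the membrane anchors *Sdhc* at 84.6 and 85.9 CPM (-0.02) and *Sdhd* at 100.3 and 90.6 CPM (0.15). No subunit of this complex departed by more than 0.15 on the log2 scale. Of its assembly factors, *Sdhaf3* (136 and 94 UMIs, 1.37-fold, 1.04 to 1.80) and *Sdhaf4* (470 and 338 UMIs, 1.31-fold, 1.14 to 1.52) were higher. *Sdhaf1* had a log2 ratio of 0.02 and *Sdhaf2*, which attaches the flavin to *Sdha*, of 0.23, and neither was called.

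Complex III, which hands electrons to cytochrome c, had the highest summed ratio of the nuclear groups, 1.25 (1.23 to 1.26) from 37830 and 28721 UMIs. The small subunits accounted for its calls, with *Uqcrb* (log2 ratio 0.58), *Uqcrh* (0.41), *Uqcr11* (0.30) and *Uqcr10* (0.28) higher. The large core subunits *Uqcrc1* (-0.07) and *Uqcrc2* (-0.03) lay at 0, and the Rieske protein *Uqcrfs1* was at 0.20. Apart from *Uqcrh*, these genes were named after their values were seen.

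In complex IV, the oxidase that reduces oxygen, nuclear subunits held 91483 and 73783 UMIs, a ratio of 1.17 (1.16 to 1.18), and 10 of the 16 tested were higher. The largest ratios were of isoforms at low level. *Cox4i2* had 171 and 62 UMIs (8.38 and 3.21 CPM), a ratio of 2.61 (1.94 to 3.54), and *Cox7a1* had 391 and 153 UMIs (19.2 and 7.93 CPM), a ratio of 2.42 (2.00 to 2.93). *Ndufa4l2* was at 5.49 and 3.68 CPM, 1.49-fold (1.098 to 2.037), and its log2 ratio of 0.57 turned to -0.29 with equal cluster weights. *Cox6b2* was at 5.15 and 3.73 CPM, 1.38-fold (1.01 to 1.89). Of the abundant partners, only *Cox7a2* was called. *Cox4i1* was at 849 and 756 CPM (log2 ratio 0.17), *Cox7a2* at 282 and 226 CPM (0.32, higher), *Cox6b1* at 0.16, *Cox6a1* at 407 and 432 CPM (-0.09) and *Ndufa4* at 208 and 238 CPM (-0.19). *Cox8a* (411 and 318 CPM) and *Cox7b* (221 and 174 CPM) were higher, with log2 ratios of 0.37 and 0.34. *Cox6a2* had 28 and 22 UMIs and was not called, and *Cox7a2l*, which joins complexes III and IV into supercomplexes, was at 293 and 259 CPM (0.18) and was not called.

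Complex V was mixed. Its nuclear subunits held 98470 and 86097 UMIs, a ratio of 1.08 (1.07 to 1.09), with 6 of 16 higher and 2 lower. The higher ones were *Atp5j* (210 and 142 CPM, 1.48-fold), *Atp5e* (log2 ratio 0.48), *Atp5h* (0.46), *Atp5g1* (0.38), *Atp5j2* (0.31) and *Atp5d* (0.31), small parts of the stalks, the rotor and the membrane sector. *Atp5a1*, the alpha subunit of the catalytic head, was lower at 334 and 411 CPM, 0.813-fold (0.787 to 0.840), and *Atp5b*, the beta subunit, had a log2 ratio of -0.24 and was not called. Except for *Atp5g1*, the members of this complex given so far were named after their values were seen. The 3 genes for subunit c, whose products form the same rotor ring, diverged. *Atp5g1* was higher at 134 and 103 CPM, *Atp5g2* stood at 360 and 388 CPM (-0.11), and *Atp5g3* was lower at 237 and 299 CPM, 0.792-fold (0.762 to 0.823).

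The mitochondrial genes did not differ by one common factor either, although they are transcribed jointly. *mt-Nd3* differed most, at 488 CPM in control and 911 CPM in depleted tumors, a ratio of 0.536 (0.522 to 0.549) and a log2 ratio of -0.90. *mt-Atp8* (40.5 and 66.4 CPM, -0.71), *mt-Co3* (4784 and 6928 CPM, -0.53) and *mt-Atp6* (4052 and 5531 CPM, -0.45) came next. These 4 genes are neighbors on the mitochondrial genome. *mt-Nd1* (1618 and 2116 CPM, -0.39) and *mt-Cytb* (1743 and 2206 CPM, -0.34) completed the 6 lower ones. *mt-Co2* (4894 and 5842 CPM, -0.26), *mt-Nd2* (1092 and 1301 CPM, -0.25), *mt-Nd4* (1740 and 2004 CPM, -0.20) and *mt-Co1* (8314 and 9386 CPM, -0.17) lay below 0 without reaching 1.2-fold. *mt-Nd5* (267 and 278 CPM, -0.06) and *mt-Nd4l* (127 and 124 CPM, 0.03) differed least.

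*mt-Nd6* went the other way, at 23.9 and 19.8 CPM, a ratio of 1.21 (1.05 to 1.38) from 488 and 382 UMIs. With equal cluster weights its log2 ratio was -0.20. By complex, the summed log2 ratio of mt- genes was -0.33 for complex I, -0.34 for complex III, -0.30 for complex IV and -0.45 for complex V. The 2 genomes therefore differed in opposite directions within complexes I, III, IV and V.

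Other gene lists in the same cells give the setting. Cytosolic ribosomal proteins had a summed log2 ratio of 0.36 (61 of 85 higher, none lower), above that of the nuclear members, and mitochondrial ribosomal proteins 0.18 (25 of 77 higher and 7 lower). Glycolytic and hypoxia genes, the other main route to ATP, stood at 0.38 (14 of 21 higher, none lower). Respiratory chain genes outside the naming rule, such as further subunits and electron carriers, were at 0.13 with 4 of 8 higher and 1 lower, and assembly factors outside it at 0.11 with 5 of 29 higher. Citrate cycle enzymes were at -0.15 (4 of 12 lower, none higher), mitochondrial carriers at -0.01, factors of mitochondrial gene expression at 0.03, regulators of mitochondrial biogenesis at -0.12 and the proteasome at -0.01. Ribosomal and glycolytic genes were thus also higher in control in these sums, and citrate cycle and carrier genes were not.

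Signs of RNA quality and of other cells differed between the libraries as well. The nuclear transcript *Malat1* had 557284 and 307817 UMIs in monocyte/macrophage-like cells, a log2 ratio of 0.78, and immediate early and heat shock genes had -0.31. NK cell markers in these cells summed to 76.3 and 21.6 CPM, with 10 and 6 of 10 seen, and T cell markers to 133 and 85.8 CPM, with all 18 seen in both. Neutrophil markers summed to 261 and 275 CPM with 11 of 12 seen and *Ly6g* at 0, and melanoma markers to 69.7 and 63.4 CPM with *Mlana*, *Tyrp1*, *Tyr* and *Sox10* at 0. The part of *Malat1*, of stress genes and of other cells' RNA in the difference was not tested.

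In monocyte/macrophage-like cells, shorter nuclear members had the higher ratios. Among nuclear members, the median log2 ratio was 0.31 for the 51 whose annotated transcripts have a median length under 750 bases, 0.18 for the 33 of 750 to 1500 bases and 0.09 for the 8 of 1500 to 3000 bases, while the 1 longer member was at 0.45. Other genes of these cells apart from cytosolic ribosomal proteins had medians of 0.04, 0.02 and -0.03 in those bins, a range far narrower than that of the members. In melanoma-like cells such other genes also fell with length, with medians of -0.15, -0.21 and -0.41. The mt- members of monocyte/macrophage-like cells had medians of -0.35 (6 genes), -0.34 (5) and -0.12 (2) in the same bins. The nuclear medians fell in the same order in T-like cells (0.39, 0.25 and -0.06), cluster 9 (0.32, 0.18 and 0.10) and melanoma-like cells (0.44, 0.37 and -0.22). In neutrophil-like cells they ran 0.42, 0.02 and 0.40, the last from 5 genes, with no such order. In the set-aside cluster 14 they rose, at -0.25, -0.005 and 0.49, the last 2 from 2 genes each. Length was chosen as a measure after the values were seen, and its part in the difference was not tested.

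Promoters of nuclear members were searched for 4 motifs known from genes of mitochondrial proteins, since many members differed in the same direction. RefSeq gave a promoter of 300 bases, from 250 before to 50 after the start (GRCm38.p6), for 78 of the 96 nuclear symbols. The core of the NRF1 site (CGCATGCG, a palindrome) was present for 14.1% of these members and for 2.07% of all genes with a promoter. The ETS core (CCGGAAG) was present for 26.9% and 9.93%, the YY1 core (AAGATGGCG) for 10.3% and 1.64%, and the GC box (GGGCGG) for 47.4% and 38.2%, on both strands and with no motif contained in another. Against genes tested in monocyte/macrophage-like cells, the shares were 4.48% for NRF1, 21.1% for ETS, 3.83% for YY1 and 68.1% for the GC box. Of members called higher in control, 2 of 38 held the NRF1 core (5.26%). Of those tested and not called higher, which include members called lower, 9 of 38 did (23.7%). The YY1 core was found for 5 and 3 of 38, the ETS core for 10 and 11, and the GC box for 18 and 18. These counts describe the windows, and no difference between the members called higher and the others was tested.

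Promoters are shown for *Atp5j*, which holds 3 of the motifs at its second listed start, and for the isoform pair *Cox7a1* and *Cox7a2*. Both isoforms were higher in control, with log2 ratios of unequal size, 1.27 and 0.32. Capitals mark matches to any of the 4 motifs.
Atp5j, second start, chr16:84834927-84835226, minus strand: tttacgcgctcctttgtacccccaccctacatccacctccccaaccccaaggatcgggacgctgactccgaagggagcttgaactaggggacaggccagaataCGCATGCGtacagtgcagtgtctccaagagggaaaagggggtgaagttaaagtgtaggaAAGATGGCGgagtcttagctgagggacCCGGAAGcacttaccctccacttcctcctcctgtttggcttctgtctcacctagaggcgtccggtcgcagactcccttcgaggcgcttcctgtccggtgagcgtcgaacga
Cox7a1, chr7:30183921-30184220, plus strand: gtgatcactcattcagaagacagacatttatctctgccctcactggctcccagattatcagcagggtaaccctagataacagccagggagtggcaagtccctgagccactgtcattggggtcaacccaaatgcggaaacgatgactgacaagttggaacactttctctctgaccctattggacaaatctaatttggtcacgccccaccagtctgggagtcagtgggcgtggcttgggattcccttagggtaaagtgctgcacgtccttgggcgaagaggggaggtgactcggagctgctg
Cox7a2, chr9:79759804-79760103, minus strand: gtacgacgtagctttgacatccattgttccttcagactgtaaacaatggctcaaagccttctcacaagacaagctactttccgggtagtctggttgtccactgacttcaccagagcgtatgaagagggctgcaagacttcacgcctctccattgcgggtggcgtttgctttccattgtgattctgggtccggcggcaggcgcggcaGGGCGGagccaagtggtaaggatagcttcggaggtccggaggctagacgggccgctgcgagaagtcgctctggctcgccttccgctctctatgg
The *Atp5j* window holds 1 NRF1, 1 ETS and 1 YY1 core. The *Cox7a1* window holds no match, and that of *Cox7a2* holds 1 GC box.

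Within monocyte/macrophage-like cells, 10 clusters were distinguished, and the difference between the groups had the same direction in each. The summed log2 ratio of nuclear members ran from 0.08 in cluster 13 (led by *Retnla* and *Lyz1*) to 0.36 in cluster 4 (*Dcstamp* and *Ccl17*), and that of mt- members from -0.47 in cluster 13 to -0.05 in cluster 2 (*Pf4* and *Itga9*). All 10 counting intervals lay above 1 for nuclear and below 1 for mt- members. The clusters were not equally represented, since cluster 0 (*Gpnmb* and *Mmp13*) had 762 control and 380 depleted cells and cluster 1 (*Ly6c2* and *Vcan*) had 329 and 756. Nuclear subunits of complexes I, III and IV were above 0 in all 10 clusters, with ranges of 0.19 to 0.45, 0.06 to 0.43 and 0.02 to 0.40. Complex V was above 0 in 9. Complex II ranged from -0.12 to 0.28, and 1 of its 10 intervals lay above 1.

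Cytosolic and mitochondrial ribosomal proteins and the proteasome were above 0 in all 10 clusters, at 0.09 to 0.40, 0.18 to 0.33 and 0.05 to 0.28. *Malat1* was above 0 in all 10 too, from 0.36 to 4.39. Glycolytic and hypoxia genes were not, with 5 of 10 clusters above 0 and a range of -0.28 to 0.45. Cluster 0 had a glycolytic log2 ratio of -0.26 beside a nuclear ratio of 0.29, and cluster 2 had -0.28 beside 0.21. In these clusters nuclear respiratory genes were higher in control while glycolytic genes were lower.

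**Figure D3:**
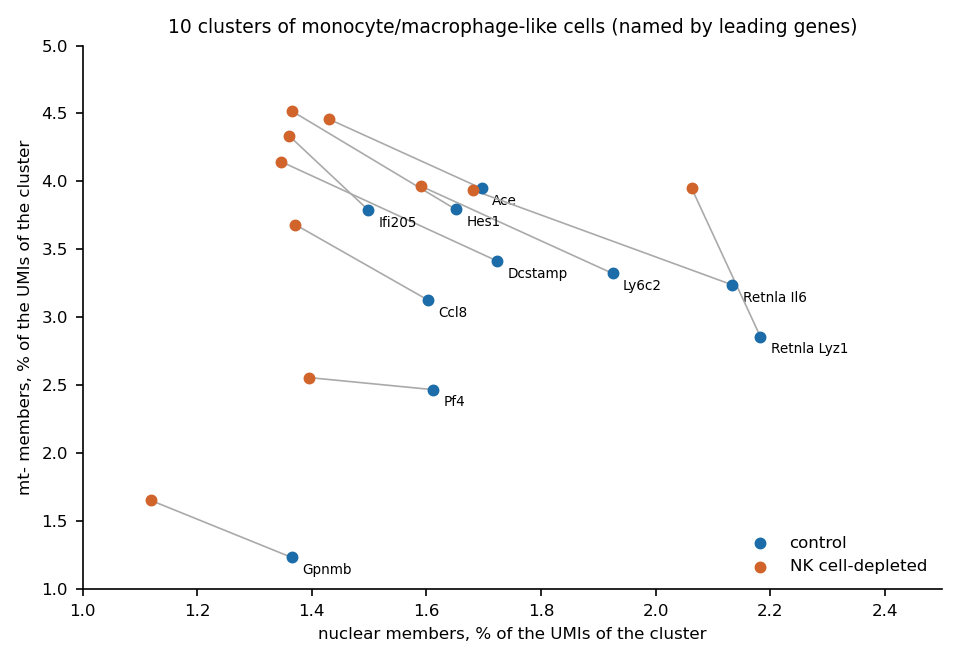
Share of UMIs from nuclear members (horizontal axis, percent) against mt- members (vertical axis, percent) in 10 monocyte/macrophage-like clusters, with a line joining the control and the NK cell-depleted value of each cluster. Every line runs toward a lower nuclear and a higher mt- share in the depleted library, and cluster 0 lies apart with the lowest mt- share, 1.23% and 1.65%.

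The nuclear share varied more between clusters of 1 library than between the libraries. Cluster 0 had the lowest share of both genomes, with 1.37% and 1.12% nuclear and 1.23% and 1.65% mt- UMIs. Of the members compared, 45 of 92 nuclear and 12 of 13 mt- genes had their lowest level there. Cluster 13 had the highest nuclear share, 2.18% and 2.06%, and 47 nuclear members peaked in it, while 16 peaked in cluster 12 (*Retnla* and *Il6*, 2.13% and 1.68%). Cluster 13 was also the shallowest of the 10 clusters, with a median of 1526 UMIs per cell. It had the lowest share of *Malat1* as well, 0.547% and 0.026% of UMIs, against up to 4.66% and 3.63% in other clusters. The part of RNA quality in the nuclear share of cluster 13 was not tested. The share of all genes that peak in clusters 12 and 13 or are lowest in cluster 0 is not given here. These counts therefore do not set the members apart from other genes. The monocyte genes *Ly6c2* and *Vcan* led cluster 1, which had 1.93% and 1.59% nuclear and 3.32% and 3.96% mt- UMIs. Cluster 6 (*Ace* and *Chil3*) had the highest mt- share in control, 3.95%, against 4.46% in depleted tumors.

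Over both libraries, the coefficient of variation between clusters had a median of 20.01% for nuclear and 27.6% for mt- members. *mt-Nd3* had the widest range among the mt- genes, from 181 CPM in cluster 0 to 1151 CPM in cluster 12, or 6.36-fold. *Ndufv3* ranged 4.71-fold, from 82.7 CPM in cluster 11 (*Ifi205* and *Spon1*) to 390 CPM in cluster 13, *Ndufa4* 4.10-fold, from 84.7 CPM in cluster 0 to 347 CPM in cluster 12, and *Ndufs8* 3.77-fold. *Sdha* ranged only 1.43-fold, from 101 to 145 CPM. Across the 10 clusters of a library, the nuclear share went with that of mitochondrial ribosomal proteins (Pearson's r 0.96 in control and 0.87 in depleted, Spearman's rho 0.81 and 0.93). It went little with the mt- share (r 0.26 and 0.38, rho 0.14 and 0.01) or with glycolytic genes (r -0.04 and 0.01). These are descriptions over 10 clusters of 1 library each, which share depth and a common total.

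The isoforms with the largest ratios had all or most of their UMIs in monocyte/macrophage-like cells. *Cox4i2*, a subunit isoform known for its response to low oxygen, had all 233 of its UMIs in monocyte/macrophage-like cells (lower limit 98.4%), and *Ndufa4l2*, a paralog of *Ndufa4* known as a target of hypoxia-inducible factor, had all 183 (lower limit 98.0%). *Cox7a1*, the isoform known from heart and skeletal muscle, had 544 of 561, or 96.97% (95.2 to 98.2). Their common partners *Cox4i1*, *Ndufa4* and *Cox7a2* had 84.8%, 81.1% and 84.5% of UMIs there, near the 82.6% that these cells held of all kept UMIs. In other classes, a count of 0 for *Cox4i2* still allows up to 1.47 CPM in cluster 9, 6.21 CPM in T-like cells and 4.95 CPM in neutrophil-like cells of the depleted library. *Cox7a1* was also at 11.7 CPM in migratory DC-like cells of the control library, from 4 UMIs, and at 10.8 and 10.2 CPM in cluster 14, from 2 UMIs. *Cox6b2* had 69.7% and *Cox6a2* 38.8% of its UMIs in monocyte/macrophage-like cells, and cluster 9 held 65 and 63 of their UMIs.

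Among the clusters, *Cox4i2* was highest in cluster 0, at 24.4 CPM (19.1 to 30.8) in control and 17.6 CPM (11.5 to 25.8) in depleted tumors. Cluster 2 followed with 16.9 and 11.8 CPM, and cluster 7 (*Hes1* and *Havcr2*) with 10.8 and 5.53 CPM. Clusters 1 and 5 (*Ccl8* and *Lyve1*) had no UMI in either library. Within a cluster, the ratio between groups was smaller than the 2.61 of the whole class and its interval included 1, at 1.39 (0.875 to 2.27) in cluster 0, 1.44 (0.913 to 2.33) in cluster 2 and 1.95 (0.763 to 5.92) in cluster 7. Clusters 0 and 2 held 762 and 580 cells in control and 380 and 286 in depleted tumors.

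*Cox7a1* had a wider spread, with 36.8 and 14.9 CPM in cluster 0 and 32.6 and 22.6 CPM in cluster 2. Its ratio had an interval above 1 in 3 of the 10 clusters, at 2.47 (1.55 to 4.11) in cluster 0, 1.44 (1.04 to 2.02) in cluster 2 and 1.93 (1.03 to 3.65) in cluster 5. In the other clusters the interval included 1, from 0 against 4 UMIs in cluster 6 and 0.719 (0.155 to 3.62) in cluster 13 up to 2.46 (0.908 to 8.31) in cluster 7. *Ndufa4l2* went in opposite directions. It was at 22.4 and 9.48 CPM in cluster 0, a ratio of 2.36 (1.31 to 4.56), and at 5.96 and 17.6 CPM in cluster 4, a ratio of 0.338 (0.199 to 0.566). The difference between the clusters was not tested. *Ndufa4* was lowest where *Ndufa4l2* was highest in control, at 90.9 and 72.4 CPM in cluster 0, and reached 370.2 and 332.5 CPM in cluster 1, where *Cox4i2* had no UMI.

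**Figure D4:**
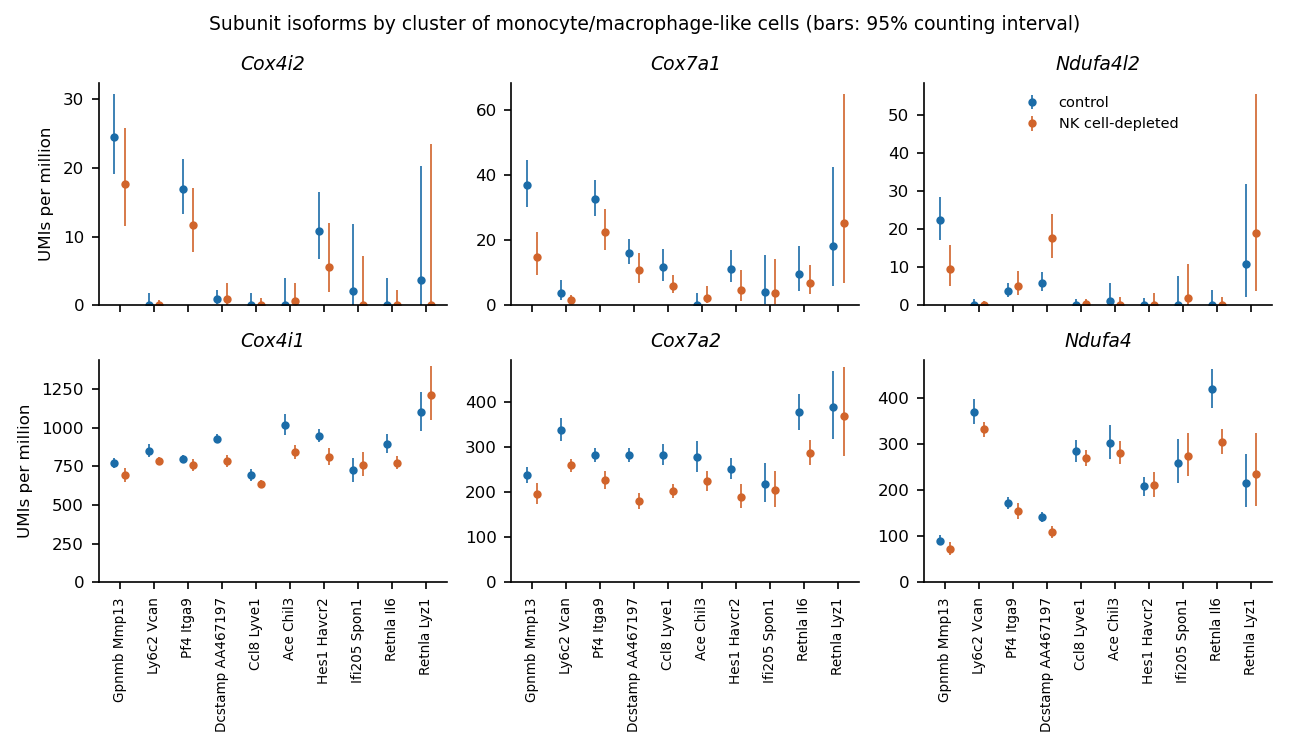
Level in CPM (vertical axes, from 0) of 3 isoforms and their common partners across the 10 monocyte/macrophage-like clusters (horizontal axis, named by leading genes), in the control (blue) and NK cell-depleted (orange) library, with exact 95% Poisson intervals. *Cox4i2*, *Cox7a1* and *Ndufa4l2* peak in cluster 0 in control, at 24.4, 36.8 and 22.4 CPM, while *Ndufa4* is lowest there, at 90.9 CPM.

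In T-like, neutrophil-like, migratory DC-like and B-like cells and in cluster 9, nuclear members were higher in control too, while mt- members were lower in some classes and not in others. In T-like cells, nuclear members held 8134 and 5246 UMIs, a ratio of 1.24 (1.19 to 1.28), with 20 of 79 higher and 2 lower against 8.58% and 6.54% of the 6316 genes tested. Their mt- members had a log2 ratio of -0.17, with 6 of 13 lower. Cytosolic ribosomal proteins stood at -0.11 in these cells, with 8 of 82 higher and 21 lower, so nuclear members were higher there while ribosomal proteins were not. *Malat1* had a log2 ratio of 0.60. T-like cells also held NK cell markers at 539 and 118 CPM (10 and 5 of 10 seen), mast cell markers at 354 and 39.3 CPM (8 and 1 of 8 seen) and monocyte/macrophage markers at 1636 and 968 CPM, and the part of these cells in the result was not tested.

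In neutrophil-like cells, nuclear members held 3807 and 4294 UMIs, a ratio of 1.27 (1.22 to 1.33), with 19 of 69 higher and none lower against 6.69% and 6.82% of 4591 genes. Their mt- members did not differ beyond counting error, at 1.03 (0.986 to 1.08), with 1 of 11 higher and 1 lower. NK cell markers summed to 201 and 3.30 CPM in these cells, and their part was not tested. In cluster 9, nuclear members held 24308 and 30957 UMIs, a ratio of 1.196 (1.176 to 1.216), with 33 of 87 higher and 3 lower against 7.96% and 9.32% of 8659 genes. The mt- members of cluster 9 were at 0.958 (0.948 to 0.969), with 1 of 13 higher and 2 lower. The markers of other cells given above for cluster 9 were higher in control as well, and their part in these ratios was not tested.

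Migratory DC-like and B-like cells had nuclear ratios of 1.19 (1.14 to 1.24) and 1.22 (1.095 to 1.372) and mt- log2 ratios of -0.17 and -0.26. NK-like cells, with only 20 cells in the depleted library, had a nuclear ratio of 0.957 (0.907 to 1.01), and the set-aside cluster 14 had 0.943 (0.845 to 1.05). *mt-Nd3* had log2 ratios of -0.74 in T-like cells and -0.57 in cluster 9, both called lower, and of -0.14 in neutrophil-like cells. *Ndufb9* had 0.98 in T-like cells, 0.66 in neutrophil-like cells and 0.51 in cluster 9.

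The spiked melanoma cells serve as a technical reference, because parental cells were added to both sorted samples. They were named from the markers *Cyr61*, *Prkg2*, *Cavin2*, *Tm4sf1*, *Cald1* and *Col8a1*, whereas the pigment cell markers *Mlana*, *Pmel*, *Dct*, *Tyrp1*, *Tyr*, *Sox10* and *S100b* were at 0. The 14 melanoma markers of this class summed to 1812 CPM in control and 4057 CPM in depleted, with 6 and 7 seen, and 1 of the 10 NK cell markers was seen, at 40.6 and 229 CPM. The marker levels of the reference thus differed between the libraries, and their part in the ratios was not tested. Cells of the tumors themselves that passed the CD45+ sort could not be told apart from spiked ones. Under the filters above, 52 and 70 melanoma-like cells remained, of which 27 and 33 had under 1% of mt- UMIs. In those under 1%, *Malat1* took 0.058% and 0.009% of UMIs and nuclear members 2.16% and 1.81%. In those with 5 to 10% of mt- UMIs, *Malat1* took 0.752% and 1.14% and nuclear members 1.55% and 1.29%. Many cells of the reference were thus poor in both mt- and *Malat1* UMIs, and their part in the ratios was not tested. Over all 52 and 70 cells, nuclear members held 2746 and 4408 UMIs, a ratio of 1.29 (1.23 to 1.35), with 17 of 74 higher and 1 lower against 6.08% and 15% of 3026 genes. The mt- members were at 0.745 (0.722 to 0.769), with none of 12 higher and 8 lower, a log2 ratio of -0.42 that turned to 0.029 without the limit on mt- UMIs. The median gene had a log2 ratio of -0.33, and relative to it nuclear members stood at 0.70 and mt- members at -0.09. Cytosolic ribosomal proteins took 40.2% of UMIs in control and 27.2% in depleted, a log2 ratio of 0.56, and *Malat1* had -0.99.

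Most melanoma-like cells exceeded the upper limits on UMIs and genes. Without these limits there were 168 and 314 of them, with medians of 22630.5 and 25318 UMIs, and the precision was higher. Nuclear members then held 65432 and 104874 UMIs, a ratio of 1.15 (1.14 to 1.16) and a log2 ratio of 0.20, with 34 of 89 higher and 2 lower against 4.02% and 21.8% of 10818 genes. The mt- members were at 0.845 (0.841 to 0.850), a log2 ratio of -0.24, with none of 13 higher and 6 lower. Relative to the median gene of these cells, at -0.17, the nuclear members stood at 0.37 and the mt- members at -0.07. Monocyte/macrophage-like cells under the same limits had log2 ratios of 0.22 and -0.33, and of 0.22 and -0.32 relative to their own median gene.

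Without the upper limits, the nuclear difference was as large in the melanoma reference as in monocyte/macrophage-like cells, and with them it was larger in the reference. The macrophage log2 ratio minus that of the reference was 0.01 (-0.0025 to 0.029) without the limits and -0.15 (-0.22 to -0.084) with them. By complex, the reference without upper limits had log2 ratios of 0.27 for nuclear complex I, -0.11 for complex II, 0.21 for complex III, 0.29 for complex IV and 0.09 for complex V. The same complexes stood at 0.27, 0.00, 0.32, 0.23 and 0.11 in monocyte/macrophage-like cells. The mt- genes of complexes I, III, IV and V were at -0.24, -0.24, -0.23 and -0.27 in the reference. In monocyte/macrophage-like cells they were at -0.33, -0.34, -0.30 and -0.45.

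**Figure D5:**
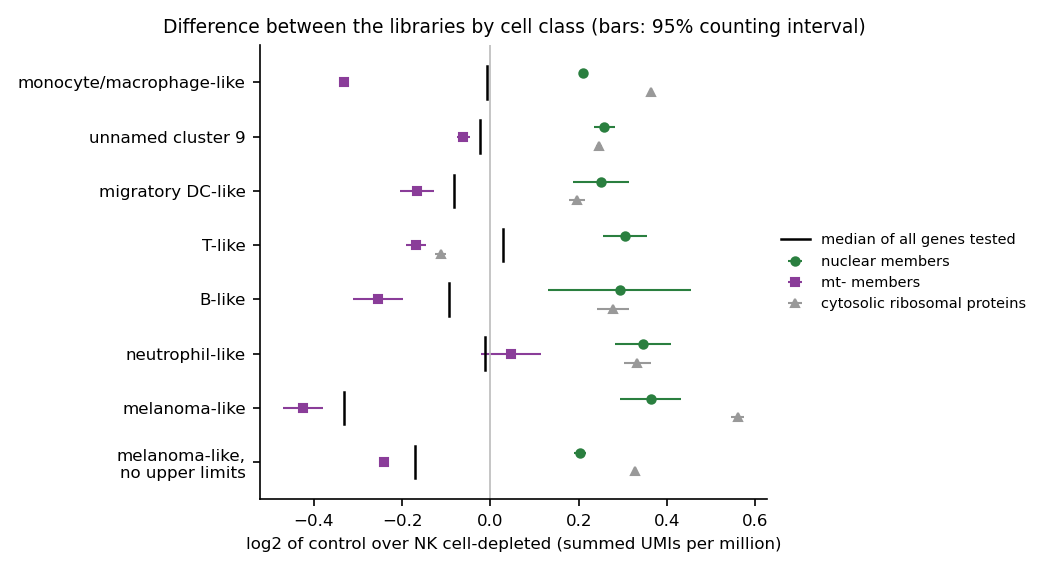
Log2 ratio of control over NK cell-depleted (horizontal axis) for the summed nuclear and mt- (purple) members in 7 cell classes, with cytosolic ribosomal proteins (gray), the median of all genes tested (black line), exact 95% counting intervals as bars, and melanoma-like cells with and without upper limits on UMIs and genes. Nuclear members (green) lie above 0 in each class drawn, and the melanoma-like cells without upper limits (0.20) meet the monocyte/macrophage-like cells (0.21).

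Single members are set beside their values in the reference. Without the upper limits, *mt-Nd3* was at 455 and 828 CPM in melanoma-like cells, a log2 ratio of -0.86 beside -0.90 in monocyte/macrophage-like cells. *mt-Atp8* stood at -0.52 beside -0.71, *mt-Nd1* at -0.38 beside -0.39, *mt-Co3* at -0.29 beside -0.53 and *mt-Atp6* at -0.27 beside -0.45. Of the nuclear members, *Ndufb9* was at 0.53 beside 0.59, *Ndufa7* at 0.49 beside 0.62, *Ndufaf2* at 0.48 beside 0.79, *Ndufa5* at 0.31 beside 0.62, *Ndufv3* at 0.27 beside 0.63 and *Atp5g3* at -0.33 beside -0.34. *mt-Nd6* had -0.30 in the reference and 0.27 in monocyte/macrophage-like cells, and *Ndufs8* had 0.10 and -0.31. *Cox4i2* had no UMI in the reference and *Cox7a1* had 2, so the reference holds no value to set beside these isoforms.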

How the data were processed

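The authors deposited, for each of the 2 libraries, a matrix of whole-number UMI counts per gene and called cell, made with Cell Ranger 3.0.2 (per the file headers) on mm10 (per the submitters' processing notes). How strand was used in counting is not given in the sources used here. Kept cells had 500 to 15000 UMIs, 200 to 4000 genes and at most 10% mt- UMIs, and 5 barcodes occurred in both libraries. Counts were log-normalized and clustered with scanpy 1.11.5 and leidenalg 0.10.2 (igraph 0.11.9, scikit-learn 1.9.0) on 2000 variable genes without members, with 15 components, 20 neighbors and resolution 1, into 18 clusters. Clusters were named from markers among their top 50 genes, a rule set after the clusters were seen. Every named cluster had at least 3 such markers of its type, except clusters 4, 7 and 11. These were named monocyte/macrophage-like with 2, 2 and 1 of them. Clusters 9 and 14 had 7 and 6 but were left unnamed, with 3 and 2 markers of another type among their top 10 genes. Scrublet called 0 and 3 cells and had not worked, so doublets were kept, with an alternative without the 10% highest scores. UMIs were summed per class and library. Ratios are control over NK cell-depleted after scaling to the class total, with 0.5 UMI added for the log2 ratio of single genes and exact conditional binomial intervals (scipy 1.17.1, numpy 2.4.6). Single genes needed at least 20 UMIs. Steps were tested on simulated data. Alternatives changed scaling, cell naming, filters, depth, cluster weights and the call rule.

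The gene families, marker lists and comparison lists were chosen with earlier results of these data known. Genes were named by rule: all mt- and complex II members, the 8 highest and 8 lowest ratios in monocyte/macrophage-like cells with at least 100 UMIs, the 3 highest and 3 lowest relative levels in each other class, and the isoform pairs.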

Additional observations from a re-analysis of the deposited data

Results flagged for a closer look

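*Ndufa4l2* differed in opposite directions in 2 clusters of monocyte/macrophage-like cells. Its ratio of control over NK cell-depleted was 2.36 in cluster 0, led by *Gpnmb* and *Mmp13*, and 0.338 in cluster 4, led by *Dcstamp* and *Ccl17*. The difference between the clusters was not tested.

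Cells above the limit of 10% mt- UMIs were left out of the comparisons, apart from the alternative without this limit, and held a mitochondrial signal of their own. They were 442 of 5734 otherwise kept control cells (7.71%, 7.03 to 8.43) and 460 of 4966 depleted cells (9.26%, 8.47 to 10.1). The mt- members took 27.1% of their UMIs in control and 27.0% in depleted tumors, and nuclear members 0.777% and 0.681%. They held 20.2% and 21.1% of their library's mt- UMIs, at medians of 1041.5 and 1067.5 UMIs a cell.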

How the results depend on the processing

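No paired analysis was possible because each group was 1 library. In monocyte/macrophage-like cells, the nuclear log2 ratio of 0.21 was 0.26 per 1000000 UMIs of genes other than mt- and cytosolic ribosomal genes, 0.22 relative to the median gene, 0.19 with cells thinned to 1500 UMIs and 0.24 with clusters at equal weight. The mt- log2 ratio of -0.33 was -0.28, -0.32, -0.35 and -0.25 under the same 4 settings, -0.34 with cells named one by one, -0.37 at resolution 2, -0.31 without the mt- limit and -0.29 with 1500 to 15000 UMIs and at most 5% mt- UMIs. Of nuclear members, 43 were called higher and 3 lower at 1.2-fold, 59 and 7 at 1.1-fold, and 8 and 0 at 1.5-fold.

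In melanoma-like cells, the nuclear log2 ratio of 0.36 was 0.64 per 1000000 UMIs of the other genes, 0.70 relative to the median gene, 0.24 with cells named one by one, 0.20 without upper limits and 0.22 without high doublet scores. The mt- value of -0.42 was -0.15, -0.092, -0.073, -0.24 and -0.22 under these 5, -0.32 with the strict filter, and 0.029, on the other side of 0, without the mt- limit. The macrophage value minus the melanoma value, -0.15 for nuclear members, was -0.38 with the changed scaling, -0.038 with cells named one by one, -0.0026 without high doublet scores and 0.013 without upper limits. With melanoma-like cells of at least 1% mt- UMIs, an alternative chosen after seeing the data, it was -0.12. The cause was not tested.

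For neutrophil-like against monocyte/macrophage-like cells, the nuclear difference of -0.89 in control was -0.95 at resolution 2, -0.97 without upper limits, -0.95 without the mt- limit, -0.57 with the strict filter and -0.53 thinned. In depleted tumors, -1.03 was -1.08 without upper limits, -1.08 without the mt- limit, -0.91 strict and -0.93 thinned. The mt- difference of -2.03 in control was -2.10 without upper limits, -1.61 without the mt- limit, -1.97 strict and -1.96 thinned, and that of -2.41 in depleted tumors was -2.37 with cells named one by one, -1.90 without the mt- limit, -2.06 strict and -2.24 thinned.

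Of 439 recomputed values for 44 single members, 360 stayed within the main counting interval. Among called members 3 changed direction, all with clusters at equal weight, which were *Ndufa4l2* (-0.29), *Ndufs8* (0.083) and *mt-Nd6* (-0.20), and 9 values of members not called lay on the other side of 0. Depth limits the small classes most, since B-like cells had 48 and 37 cells.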
